A study of Mus musculus with 34 samples.

Results

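The 10 genes described here are *G0s2*, *Cidec*, *Cideb*, *Plin2*, *Plin5*, *Pnpla2*, *Fitm1*, *Fitm2*, *Abhd5* and *Mgll*. They were taken from 22350 protein-coding genes because their products act in lipid droplet formation, coating or growth, or in triglyceride breakdown and its control. For each gene, the ChIP-seq peaks of HDAC3, PROX1 and HNF4α were collected when their centre lay in a window from 50 kb upstream of the gene start to 2 kb past the gene end on mouse genome build mm9. The windows held 56 of the 28631 HDAC3 and PROX1 peaks, and 0 of the 56 lay in the windows of 2 of the genes. All mice were C57B/6 males of 10 weeks whose livers were collected at zeitgeber time 10, which is 10 h after lights on. The HDAC3 and PROX1 lists each came from 3 libraries of control livers. The HNF4α list came from *Hnf4α* floxed mice with an intact gene, the controls of a liver knockout, for which the labels list 2 libraries. By the study's description, these controls carried a viral vector that expressed *Egfp* from the TBG promoter, which is active in hepatocytes. Each list was called on pooled replicates, so the spread between livers and the depth of each library are unknown. Expression was not analysed here, and the labelled tissue was not checked against marker genes. ChIP-seq sequences the DNA that an antibody against a factor pulls down from fixed chromatin. A peak is a stretch where these reads pile up above a control, here IgG.

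Hepatocytes store excess fatty acids as triglyceride in cytosolic lipid droplets. PNPLA2, also called ATGL, starts lipolysis by removing the first fatty acid, ABHD5 activates it, G0S2 inhibits it, and MGLL releases the last fatty acid. Perilipins such as PLIN2 and PLIN5 coat the droplet, CIDEC promotes droplet fusion, CIDEB takes part in the lipidation of very low density lipoprotein in liver, and FITM1 and FITM2 act in the endoplasmic reticulum where droplets form. HDAC3 is a histone deacetylase that works in nuclear receptor corepressor complexes, PROX1 is a homeodomain transcription factor, and HNF4α is a nuclear receptor that maintains hepatocyte gene expression.

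The peaks were sorted into classes. Co-bound peaks have identical coordinates in the HDAC3 and PROX1 lists, HDAC3-only and PROX1-only peaks are in 1 of the lists, and a peak counted as bound by HNF4α when a single HNF4α peak covered at least 50% of its 200 bp. By the study's description, the signal limit was lower for HDAC3 than for PROX1. An overlapping peak needed only a signal below both limits for the other factor. A co-bound peak therefore need not pass the full limit of each factor. The study describes HNF4α peaks that were also filtered on the knockout, and whether the list used here was filtered in that way cannot be told from it. A peak without HNF4α is therefore one without a listed HNF4α peak. All 10 genes had at least 1 co-bound peak in the window, whereas 38.4% of protein-coding genes did. For co-bound peaks that HNF4α also covered, the counts were 10 of the 10 genes and 31.1% of protein-coding genes. That count depends on the window and the overlap. With each peak given only to the gene of its nearest transcription start site (TSS), 6 of the 10 genes and 19% of protein-coding genes had such a peak. With 75% of the peak covered, 6 of the 10 genes and 22.3% of protein-coding genes did, and with HNF4α peaks above the median score 9 of the 10 and 25.1%. The listed HNF4α peaks are 85 to 168 bp wide, so the narrower ones cannot cover 75% of 200 bp wherever they lie. The number of co-bound peaks ranged from 1 at *Cideb* and *Fitm2* to 9 at *G0s2*, with a median of 4.0 over the 10 genes and 0.0 over all genes. Among all genes with a co-bound peak, the median was 2.0. At least 3 co-bound peaks were found at 8 of the 10 genes and at 17.3% of all genes. The windows were not longer than usual, with a median of 58.1 kb against 67.4 kb over all genes. Since the genes were chosen with results of these data known, and *G0s2* and *Cidec* are loci that the study examined in these livers, these counts describe the genes and no test was made.

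**Figure D1:**
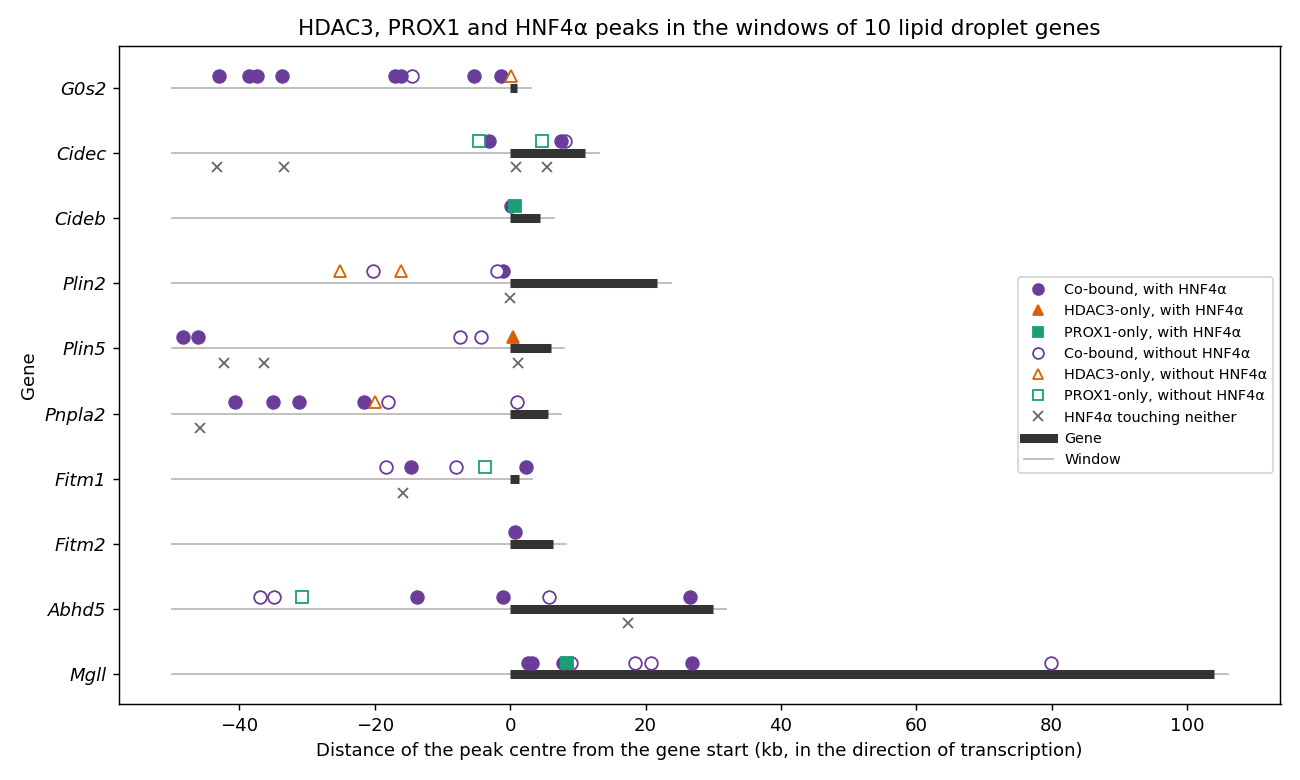
Peaks in the windows of the 10 genes, with the distance of each peak centre from the gene start in kb on the horizontal axis and 1 gene per line. Circles stand for co-bound, triangles for HDAC3-only and squares for PROX1-only peaks, filled where HNF4α covers at least 50%, crosses for HNF4α peaks that touch neither factor, thick bars for the gene and thin lines for the window. Every gene has a filled circle, *G0s2* has 8, and the peaks of *Mgll* lie within the gene.

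Sequences are shown for co-bound peaks whose HNF4α score was the highest of their gene at *G0s2* and *Plin2*, for the co-bound peak of *Abhd5* that holds the HNF4 consensus without a mismatch, and for the peak in a coding exon of *Cidec*, which holds no match. The score is the HOMER peak score, which was given for the HNF4α list and used only to rank its peaks. All are printed 5′ to 3′ on the forward strand of mm9. Capitals mark matches to the HNF4 consensus CAAAGTCCA with at most 1 mismatch, which appear as the reverse complement where the match is on the reverse strand. Only these 9 bases were searched, so a peak with or without a match may hold HNF4 sites that are not marked. A marked match need not be the site that HNF4α binds. The *Abhd5* peak was singled out after its match had been seen.
*G0s2*, chr1:195137905-195138104, intron of *Lamb3*, HNF4α score 126.7: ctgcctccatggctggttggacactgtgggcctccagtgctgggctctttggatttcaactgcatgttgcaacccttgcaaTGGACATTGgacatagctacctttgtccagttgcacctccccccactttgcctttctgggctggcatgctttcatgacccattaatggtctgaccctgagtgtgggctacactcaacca
*Plin2*, chr4:86316922-86317121, intergenic, HNF4α score 89.5: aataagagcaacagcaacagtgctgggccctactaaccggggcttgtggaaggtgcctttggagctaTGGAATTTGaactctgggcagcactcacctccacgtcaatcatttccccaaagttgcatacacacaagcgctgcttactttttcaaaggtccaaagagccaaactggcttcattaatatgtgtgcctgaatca
*Abhd5*, chr9:122246905-122247104, intergenic, HNF4α score 50.9: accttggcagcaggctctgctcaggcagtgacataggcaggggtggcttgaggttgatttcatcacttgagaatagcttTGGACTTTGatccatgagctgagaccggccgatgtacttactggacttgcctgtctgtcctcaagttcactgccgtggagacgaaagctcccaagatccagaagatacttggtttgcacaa
*Cidec*, chr6:113378130-113378329, coding exon, HNF4α score 74.0: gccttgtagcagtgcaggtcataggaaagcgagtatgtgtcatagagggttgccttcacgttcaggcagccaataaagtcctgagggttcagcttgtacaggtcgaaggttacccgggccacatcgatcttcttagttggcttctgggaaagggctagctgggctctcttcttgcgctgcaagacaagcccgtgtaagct

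*G0s2*, which encodes the inhibitor of PNPLA2, had the most co-bound peaks of the 10 genes. It lies on the reverse strand at chr1:195098355-195099382, and its window of 53.0 kb held 9 co-bound peaks, 8 of them with HNF4α, and 1 HDAC3-only peak. This count was higher than that of 98.0% of protein-coding genes. Per 100 kb of window, *G0s2* had 17.0 co-bound peaks, ahead of *Pnpla2* with 10.4 and *Fitm1* with 7.51. The co-bound peaks fell into 2 groups by distance. Upstream of the gene and outside any other gene lay peaks centred at -1.39, -5.38, -14.6, -16.1 and -17.0 kb from the start, and 4 more lay at -33.8, -37.5, -38.6 and -43.0 kb in introns of *Lamb3*, which encodes a laminin chain. Only the first 2 had *G0s2* as the gene with the nearest TSS, and the others were nearest to that of *Lamb3*. The peak at -14.6 kb was the co-bound peak without HNF4α.

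The HNF4α scores at *G0s2* spanned the full range of the co-bound peaks with HNF4α in the 10 windows. The scores were 58.9 at -1.39 kb, 60.8 at -5.38 kb, 93.3 at -16.1 kb and 124.9 at -17.0 kb. Within *Lamb3* they were 25.0, 29.2, 126.7 and 77.3 in order of distance. The peaks at -38.6 and -17.0 kb thus carried the highest scores of the windows. Of all 12284 co-bound peaks with HNF4α, 99.3% scored below the former and 99.1% below the latter, and 90.0% scored below the peak at -16.1 kb. In the whole list of 24253 HNF4α peaks, 92 reached the score of the peak at -38.6 kb and 114 that of the peak at -17.0 kb. The HNF4 consensus was matched in the peaks at -16.1, -17.0, -38.6 and -43.0 kb, which are those with the 4 highest scores. The peaks at -16.1 and -17.0 kb hold the same 9 bases, CAAAGTCTA, on the forward strand.

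The match at -17.0 kb, at chr1:195116302-195116310, lies in an enhancer that was cloned for reporter assays, from which altered versions were designed. They are shown here over the changed stretch, chr1:195116277-195116328, with capitals marking the 16 bp at chr1:195116295-195116310 that were replaced or removed.
mm9 reference: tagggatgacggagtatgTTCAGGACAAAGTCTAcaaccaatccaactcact
scrambled site: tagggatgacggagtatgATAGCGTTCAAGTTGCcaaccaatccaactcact
deleted site: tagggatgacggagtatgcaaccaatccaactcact
Of the 16 bp, 10 bases differ between the reference and the scrambled version, and the deletion shortens the cloned stretch from 200 to 184 bp. With at most 1 mismatch, the reference stretch of 200 bp holds 1 match to CAAAGTCCA and the altered versions 0 each. With at most 2 mismatches, the reference holds 4 matches and the altered versions 3 each, so weaker matches outside the 16 bp are present in all of them. The reporter measurements were not analysed here.

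The remaining peak of *G0s2* was at the promoter, defined as within 1 kb of a TSS. It was an HDAC3-only peak at chr1:195099170-195099369, centred 113 bp inside the gene, and no HNF4α peak touched it. None of the consensus sequences searched was found in it. HDAC3-only peaks are few, and 7.41% of protein-coding genes had at least 1 in the window, as did 4 of the 10 genes, namely *G0s2*, *Plin2*, *Plin5* and *Pnpla2*. An HDAC3-only peak at the promoter was found at *G0s2* and *Plin5*, 2 of the 10 genes, and at 1.14% of protein-coding genes. Counts of this size rest on 5 peaks.

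*Pnpla2* encodes the lipase itself and lies on the forward strand at chr7:148641097-148646642 in a gene-dense region. Its window held 6 co-bound peaks, 4 of them with HNF4α, and 1 HDAC3-only peak, and 94.2% of protein-coding genes had fewer co-bound peaks. One co-bound peak, chr7:148642053-148642252, lies 378 bp from a TSS of *Pnpla2* and 1.05 kb downstream of the gene start. No HNF4α peak touched it, and it holds TAGGTCA, the consensus of the nuclear receptors ROR and REV-ERB. The other 5 co-bound peaks lay between -40.7 and -18.1 kb and were nearest to the TSS of a neighbour. Of these, 2 were at the promoter of *Slc25a22*, which encodes a mitochondrial glutamate carrier, and 1 at the promoter of *Pddc1*. The highest HNF4α scores were 68.3 at the *Pddc1* promoter, chr7:148600278-148600477, and 67.4 at -35.0 kb. The *Slc25a22* promoter peak at -18.1 kb was touched by an HNF4α peak of score 82.5 over 38.5% of its length, under the limit of 50%. The HDAC3-only peak, chr7:148621062-148621261, was also at the *Slc25a22* promoter, 135 bp from the TSS, and had no HNF4α. The co-bound peaks with HNF4α in this window were thus all closer to another gene than to *Pnpla2*.

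*Abhd5*, which encodes the activator of PNPLA2, lies on the forward strand at chr9:122260726-122290642. HNF4α covered 3 of its 6 co-bound peaks, and the window also held 1 PROX1-only peak without HNF4α at -30.8 kb. The promoter peak, chr9:122259632-122259831, was centred 995 bp upstream of the start, carried an HNF4α score of 52.3 and holds no HNF4 match. The peak printed above, at -13.7 kb, had a score of 50.9 and the only match without a mismatch among the co-bound peaks of the 10 windows. It also holds TTGCACAA, which is the C/EBP consensus TTGCGCAA with 1 mismatch. The remaining peak with HNF4α, at 26.5 kb in the last part of the gene, scored 38.6. It holds a match to each of these consensus sequences, both with 1 mismatch. The peaks at -37.0 and -34.9 kb and at 5.68 kb in an intron had no HNF4α.

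*Mgll*, which encodes monoacylglycerol lipase, is the longest of the genes, on the forward strand at chr6:88674406-88778354. All 8 of its co-bound peaks lay in its introns, from 2.60 to 79.9 kb past the start, and 0 lay in the 50 kb upstream. Of these peaks, 4 had HNF4α, with scores of 50.9 at 2.60 kb, 50.9 at 3.23 kb, 59.8 at 7.86 kb and 27.8 at 26.8 kb. The peak at 18.5 kb was touched by an HNF4α peak of score 77.7 over 39.0% of its length and did not count as bound. The highest score among the co-bound peaks that counted was at chr6:88682166-88682365. A PROX1-only peak with HNF4α, score 39.6, lay between co-bound peaks at 8.45 kb. Although 97.1% of protein-coding genes had fewer co-bound peaks, the window of 156.0 kb brought the density to 5.13 per 100 kb, less than that of *Abhd5* with 7.32.

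Of the perilipin genes, *Plin2* lies on the reverse strand at chr4:86294290-86315964 and had 3 co-bound peaks, of which HNF4α covered 1. That peak, chr4:86316922-86317121, was centred 1.06 kb upstream of the start, and 88.0% of co-bound peaks with HNF4α scored below its 89.5. Its match, CAAATTCCA on the reverse strand, has 1 mismatch. The co-bound peaks without HNF4α lay at -1.90 and -20.3 kb, the latter with 2 matches to the C/EBP consensus. The HDAC3-only peaks of *Plin2*, at chr4:86332053-86332252 and chr4:86341039-86341238, lay 16.2 and 25.2 kb upstream, on either side of that co-bound peak, and had neither HNF4α nor a match. At the TSS itself the lists hold an HNF4α peak, chr4:86315896-86316059, centred 13 bp upstream with a score of 36.8, which touched no HDAC3 or PROX1 peak. All 5 HDAC3 and PROX1 peaks of the window were nearest to *Plin2*.

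*Plin5*, on the reverse strand at chr17:56251024-56257019, had 4 co-bound peaks, and all were nearest to another gene. The peaks at -4.36 and -7.45 kb, at the promoter of *Lrg1* and in an intron of *Sema6b*, had no HNF4α. Those at -46.2 and -48.4 kb, in introns of *Tnfaip8l1*, had HNF4α with scores of 43.8 and 54.2, the higher at chr17:56305280-56305479. The promoter of *Plin5* was instead marked by an HDAC3-only peak, chr17:56256520-56256719, 102 bp from a TSS. An HNF4α peak of score 44.3 covered 62.0% of it, which made it the only 1 of the 5 HDAC3-only peaks with HNF4α. Of all 1208 HDAC3-only peaks, 14.0% had HNF4α (95% Wilson interval 12.1 to 16.1). The part of this peak outside untranslated exons, chr17:56256520-56256549, reads tagggtggtgtcttcacctctctggtccat and holds no match. A second HNF4α peak at the promoter, centred 1.19 kb inside the gene with a score of 52.3, touched neither factor.

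*Cideb* had the fewest peaks outside *Fitm2*, but both lay at its promoter. The gene is on the reverse strand at chr14:56372882-56377295, and its co-bound peak, chr14:56377147-56377346, was centred 49 bp inside the gene. The HNF4α score there was 87.2, and 86.4% of co-bound peaks with HNF4α scored below it. The peak holds 2 matches to the HNF4 consensus, which are shown in capitals because of the high score at the TSS.
*Cideb*, chr14:56377243-56377271, match on the reverse strand: gagtcaagcgTGGACTCTGacccccttgc
*Cideb*, chr14:56377279-56377307, match on the forward strand: gtaagagggaCAAAGTCGAagagggtagg
Next to it, a PROX1-only peak at chr14:56376494-56376693 was centred 702 bp inside the gene and had HNF4α with a score of 30.2. A co-bound peak within 1 kb of a TSS was found at 4 of the 10 genes, *Cideb*, *Pnpla2*, *Fitm2* and *Abhd5*, and at 6.26% of protein-coding genes. Within 500 bp of a TSS, *Cideb* and *Pnpla2* had one, 2 of the 10 genes against 4.09% of protein-coding genes.

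*Cidec*, on the reverse strand at chr6:113374628-113385754, had HNF4α at 2 of its 3 co-bound peaks. The peak at chr6:113378130-113378329 was the only co-bound peak of the windows in a coding exon, 7.53 kb inside the gene, and scored 74.0. The other peak with HNF4α, at -3.12 kb, scored 48.1 and holds GAAAGTCCA and a C/EBP match. *Cidec* was the gene with the most HNF4α peaks that touched neither factor, at 4, among them a promoter peak at chr6:113384786-113384885 with a score of 45.2. Such HNF4α peaks were found at 6 of the 10 genes, namely *Cidec*, *Plin2*, *Plin5*, *Pnpla2*, *Fitm1* and *Abhd5*, and at 33.7% of protein-coding genes. *Cidec* also had 2 PROX1-only peaks, at 4.65 kb inside and 4.65 kb upstream of the gene, both without HNF4α. PROX1-only peaks were found at 5 of the 10 genes, *Cidec*, *Cideb*, *Fitm1*, *Abhd5* and *Mgll*, and at 25.2% of protein-coding genes.

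The *Fitm* genes, which act in droplet formation, had no co-bound peak nearest to their own TSS. *Fitm1*, on the forward strand at chr14:56194511-56195789, had 4 co-bound peaks and 1 PROX1-only peak at -3.69 kb. The highest score was 49.5, at chr14:56196682-56196881 at the promoter of *Psme1*, which encodes a proteasome activator subunit, 2.27 kb past the start of *Fitm1*. The other peak with HNF4α was at the *Dcaf11* promoter, 14.7 kb upstream, and scored 32.0 with 2 HNF4 matches. *Fitm2*, on the reverse strand at chr2:163292115-163298365, had a single peak, which was co-bound with HNF4α. This peak, chr2:163297516-163297715, was centred 750 bp inside *Fitm2* and 712 bp from the TSS of the neighbouring *2310001K24Rik*, so it was counted at the promoter of both. Its score of 39.6 was below the median of the HNF4α list, 41.9, and it holds 2 HNF4 matches and 1 C/EBP match.

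**Figure D2:**
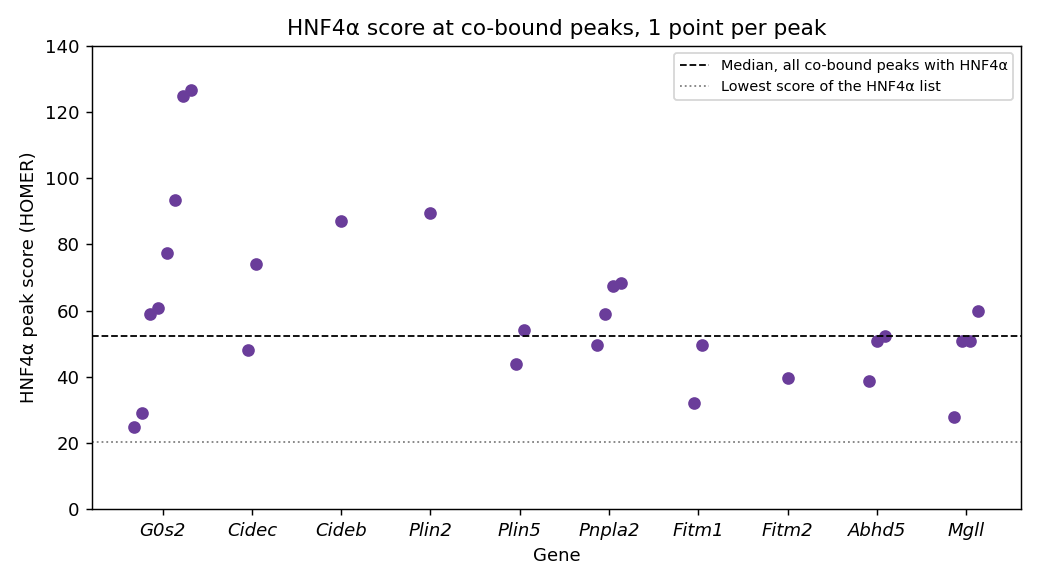
HNF4α peak score (HOMER, vertical axis) at each of the 28 co-bound peaks with HNF4α in the windows, by gene, 1 point per peak. The dashed line is the median of all co-bound peaks with HNF4α, 52.3, and the dotted line the lowest score of the list, 20.3. The 3 highest points, 126.7, 124.9 and 93.3, are at *G0s2*, and the points of *Fitm1*, *Fitm2* and *Abhd5* reach no more than the dashed line.

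Over the 10 windows, 45 peaks were co-bound, 5 HDAC3-only and 6 PROX1-only. These are 80.4%, 8.93% and 10.7% of the 56 peaks, whereas the classes made up 70.0%, 4.22% and 25.8% of all 28631 peaks. The signal limits differ between the classes, so the shares compare the windows with all peaks and not the classes with each other. HNF4α covered 28 of the 45 co-bound peaks, or 62.2% (95% Wilson interval 47.6 to 74.9), close to the 61.3% (60.6 to 62.0) of all 20039 co-bound peaks. Among the PROX1-only peaks, those of *Cideb* and *Mgll* had HNF4α, 2 of 6 or 33.3% (9.68 to 70.0), and the share over all 7384 PROX1-only peaks was 36.7% (35.6 to 37.8). These intervals cover counting error only, and neighbouring peaks are not independent. For both classes the interval of the windows contained the share of all peaks. The median HNF4α score was 53.25 at the co-bound peaks of the windows, with a range from 25.0 to 126.7, and 52.3 at all co-bound peaks with HNF4α. Of the 44 HNF4α peaks in the windows, 11, or 25.0%, touched neither factor, against 31.4% of the whole list. Their median score was 33.0, with a range from 24.5 to 52.3, and that of all such peaks was 32.5.

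Most of the co-bound peaks of the windows lay outside promoters. By their centres, 19 were in introns, 15 between genes, 1 in a coding exon and 10 at promoters, of which 3 were assigned to one of the 10 genes and 7 to another gene. Upstream of the gene start lay 29 peaks and downstream 16, at a median distance of 14.7 kb, and 20 were within 10 kb of the start. The nearest TSS belonged to the gene itself for 21 of the 45. The median distance to the nearest TSS of any gene was 5.38 kb, against 17.6 kb over all co-bound peaks. The windows were placed at genes, so a shorter distance follows in part from how the peaks were chosen. Of the HDAC3-only peaks, 3 of 5 were within 1 kb of a TSS, at *G0s2*, *Plin5* and *Slc25a22*, and 19% of all HDAC3-only peaks were.

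The HNF4 consensus CAAAGTCCA, with at most 1 mismatch on either strand, was present in 15 of the 45 co-bound peaks, or 33.3% (95% Wilson interval 21.4 to 47.9). Over all co-bound peaks the share was 20.9% (20.4 to 21.5), and in stretches of the same length 2 kb to either side it was 6.33%. Matches were more frequent in co-bound peaks with HNF4α than in those without. They were present in 14 of the 28 co-bound peaks with HNF4α, or 50% (32.6 to 67.4), and in 1 of the 17 without, or 5.88% (1.05 to 27). Over all co-bound peaks, the shares were 28.4% (27.6 to 29.2) with HNF4α and 9.05% (8.43 to 9.71) without. The level of these shares depends on the mismatches allowed, and the consensus was matched without a mismatch in 1 of the 45 peaks, that of *Abhd5* at -13.7 kb. For the 45 peaks the window interval began at 21.4, against a share of 20.9% over all co-bound peaks. For the 28 with HNF4α it began at 32.6, against 28.4%. Neighbouring peaks are not independent, *G0s2* alone gave 9 of the 45, and whether the windows differ was not tested.

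The C/EBP consensus TTGCGCAA, with at most 1 mismatch on either strand, was present in 8 of the 45 co-bound peaks, or 17.8% (95% Wilson interval 9.29 to 31.3). The share was 12.4% (11.9 to 12.9) over all co-bound peaks and 2.37% in the flanking stretches. TAGGTCA, the ROR and REV-ERB consensus without a mismatch, was present in 3 of the 45, or 6.67% (2.29 to 17.9), against 5.04% (4.74 to 5.35) over all co-bound peaks and 2.12% in the flanks. These 3 peaks were at -5.38 kb of *G0s2* and at -31.2 and 1.05 kb of *Pnpla2*. None of the 5 HDAC3-only peaks held TAGGTCA, and of all HDAC3-only peaks 9.52% did. With 5 peaks, the Wilson interval of a count of 0 reaches to 43.4%, and whether the shares differ was not tested. For both consensus sequences the interval of the windows contained the share of all co-bound peaks.

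**Figure D3:**
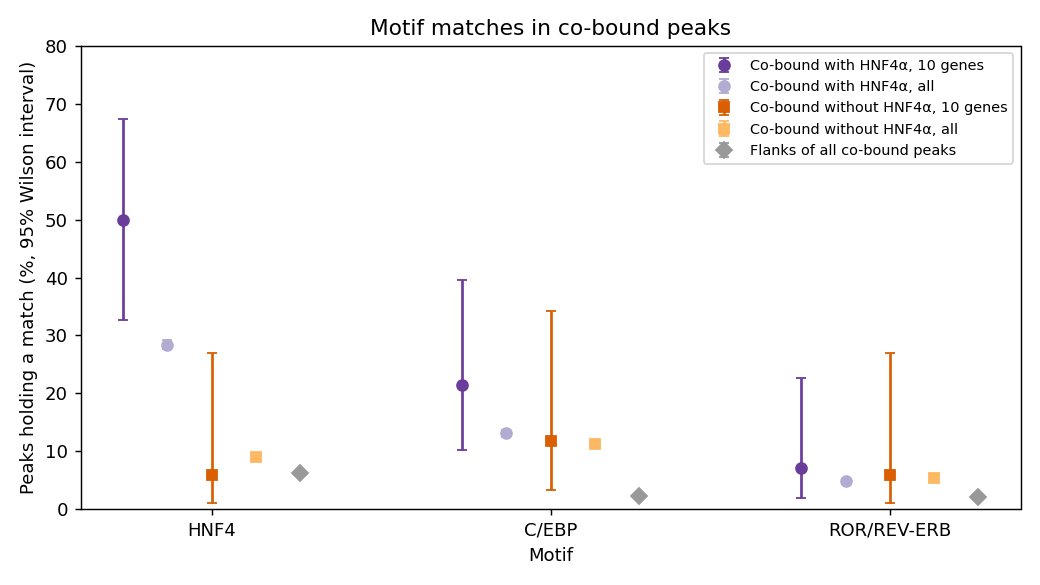
Share of co-bound peaks that hold a match to each consensus, in percent, with 95% Wilson intervals as bars. Circles are peaks with HNF4α and squares peaks without, dark for the windows of the 10 genes and light for all co-bound peaks, and diamonds are the stretches 2 kb to either side of all co-bound peaks. For HNF4 the dark circle is at 50% and the dark square at 5.88%, while for the other consensus sequences the dark bars of the 2 kinds of peak overlap.

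A longer list of 19 other genes linked to lipid droplets or neutral lipid hydrolysis, among them *Plin1*, *Plin3*, *Plin4*, *Lipe*, *Lipa*, *Pnpla3*, *Hsd17b13*, *Bscl2*, *Acsl3* and *Ces1d*, was read in the same way. At least 1 co-bound peak was found at 17 of the 19 (38.4% of protein-coding genes) and a co-bound peak with HNF4α at 14 (31.1%), with a median of 3 co-bound peaks per gene. HDAC3-only peaks were found at 5 (7.41% of protein-coding genes) and PROX1-only peaks at 7 (25.2%). At the promoter, 5 of the 19 had a co-bound peak (6.26% of protein-coding genes). An HDAC3-only peak was at the promoter of 1 (1.14%), *Lipe*, which encodes hormone-sensitive lipase. HNF4α peaks that touched neither factor were found at 12 (33.7% of protein-coding genes). Among these genes, *Nceh1*, which encodes a cholesteryl ester hydrolase, had 10 co-bound peaks, *Lipa*, which encodes lysosomal acid lipase, had 8, and *Faf2* and *Ces1d* had 7 each. *Rab18* and *Aup1* had 0. *Plin4* lies next to *Plin5*, and its window holds the same HDAC3-only peak. The windows of these genes overlap, so a peak can count in both lists. *Plin4* had 2 co-bound peaks, of which 0 had HNF4α. The 19 genes were also chosen with results of these data known, so their shares stand beside those of the 10 genes and of all genes without a test.

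**Figure D4:**
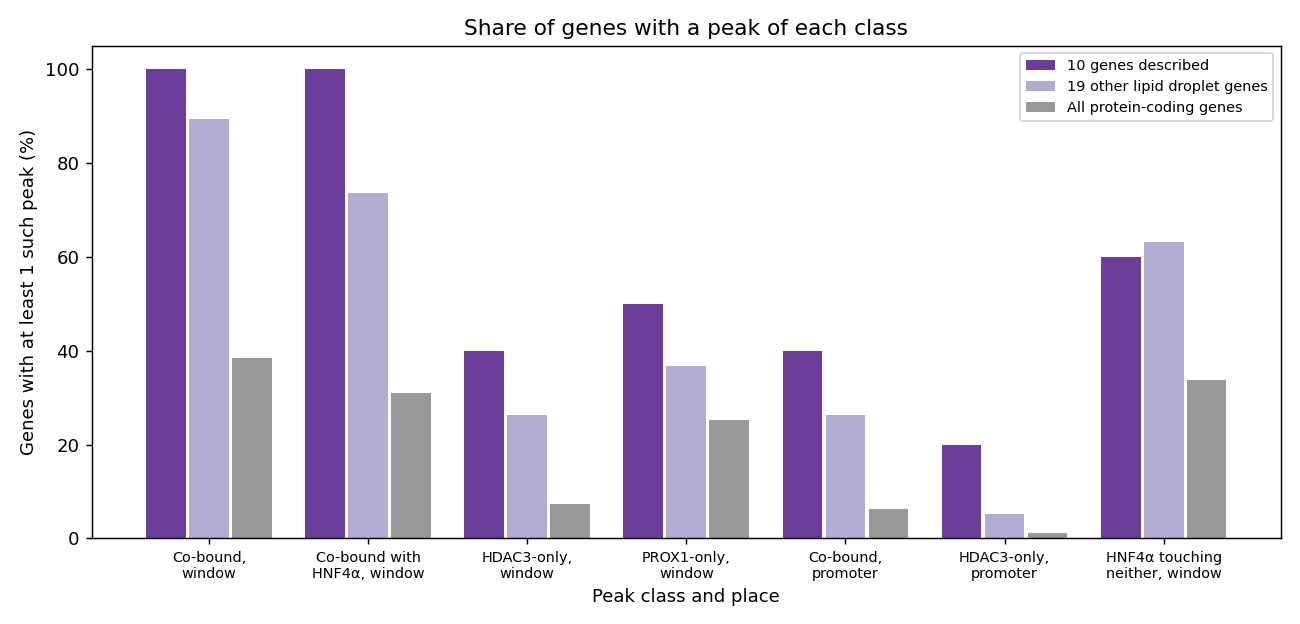
Percent of genes with at least 1 peak of each class in the window or at the promoter, for the 10 genes, the 19 other lipid droplet genes and all 22350 protein-coding genes. Bars start at 0 and have no error, since the lists pool the livers. The bars of both gene lists stand above those of all genes in every class, with co-bound peaks at 10 of 10 and 17 of 19 genes against 38.4%.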

How the data were processed

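ChIP-seq peaks for HDAC3, PROX1 and HNF4α in control mouse livers were read from 3 deposited lists. By the methods and the submitters' processing notes, reads were aligned by the authors to mm9 (Bowtie 0.12.7) and stripped of duplicates. The replicates were then pooled, and HOMER peaks were called against IgG and filtered on fold enrichment and normalized read number. Whether the HNF4α list was also filtered on the *Hnf4α* knockout, as the study describes for its comparison of HNF4α binding, cannot be told from the list. The authors deposited peak positions for HDAC3 and PROX1, each 200 bp wide, and for HNF4α positions of 85 to 168 bp with a HOMER score per peak, whose scaling is not given in the sources used here. Co-bound peaks have the same coordinates in the HDAC3 and PROX1 lists, so co-binding is the authors' classification and not a comparison of separate calls. Pooling hides the spread between livers, and read counts were not analysed here.

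Genes and exons were taken from GENCODE on the NCBIM37 assembly, which is mm9, and sequences from that assembly, over 20 chromosomes. Windows ran from 50 kb upstream to 2 kb downstream, promoters were within 1 kb of a TSS of a protein-coding transcript, and HNF4α had to cover 50% of a peak. Intervals of shares are 95% Wilson intervals and cover counting error alone. No test was made over the genes. The 10 genes, the 19 other genes, the consensus sequences and the alternatives were chosen with earlier results of these data known. All 10 genes were named, and peaks were given with coordinates at promoters, where HDAC3-only or where the HNF4α score was the highest of the gene. A few others were added after their values were seen. The code was tested on simulated data. The tools were samtools 1.23.1 and Python 3.11.15 with numpy 2.4.6, scipy 1.17.1, pysam 0.24.0 and matplotlib 3.10.9. Other settings varied the window, the gene assignment, the merging of peaks, the HNF4α overlap and score, the promoter width and the mismatches. RNA-seq, H3K27Ac and knockout libraries were not analysed here.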

Additional observations from a re-analysis of the deposited data

How the results depend on the processing

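Of 50 alternative values, 39 moved by less than the limit set for them and 11 by more. The limits differed between measures and are not given here, so these 2 counts do not measure stability. Values counted within their limit could still shift. The median number of co-bound peaks per gene went from 4.0 to 2.0 with windows from 10 kb upstream. It went to 1.5 when each peak was given only to its nearest gene. Co-bound peaks went from 45 to 67 with 100 kb, and genes with a co-bound promoter peak from 4 to 6 with a promoter of 2 kb. With windows from 10 kb upstream, co-bound peaks went from 45 to 25 and HDAC3-only peaks from 5 to 2, and with 100 kb PROX1-only peaks went from 6 to 10. Assigning each peak to the gene of its nearest TSS left 21 co-bound peaks, and 6 of the 10 genes had a co-bound peak with HNF4α (19% of all genes), without *Plin5*, *Pnpla2*, *Fitm1* and *Fitm2*. With 75% of the peak covered in place of 50%, the HNF4α share of co-bound peaks went from 62.2% to 33.3% and 6 genes had such a peak (22.3% of all genes), without *Cidec*, *Cideb*, *Plin5* and *Fitm2*. The limit of 75% excludes the narrower HNF4α peaks by their width alone, so this drop is not a measure of overlap only. With HNF4α peaks above the median score only, 0.0% of the 6 PROX1-only peaks had HNF4α, and 9 genes had a co-bound peak with HNF4α, without *Fitm2*. A promoter of 500 bp left 2 genes with a co-bound promoter peak in place of 4. The HNF4 consensus was found in 2.22% of co-bound peaks with no mismatch and in 75.6% with at most 2. No paired analysis was possible because each list pools its replicates, and for the same reason no replicate could be left out. The lists keep only peaks above the authors' limits, and for the other factor of an overlapping peak that limit was lower. A gene without a peak may still have weaker binding.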

Other observations

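In the order of the lists as deposited, empty lines divide the co-bound peaks into 3 blocks that carry no label. Of the 45 co-bound peaks in the windows of the 10 genes, 36 were in the first block, 2 in the second and 7 in the third, or 80%, 4.44% and 15.6%. Over all co-bound peaks the shares were 78.3%, 12.3% and 9.43%. The peaks in the second block were an intronic peak of *Cidec* without HNF4α and the peak of *Abhd5* at 26.5 kb. Of the 7 in the third block, 4 lay at promoters of other genes in the windows of *Pnpla2*, *Plin5* and *Fitm1*.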
